A study of Gallus gallus with 3 samples.

Results

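The genes described here are 4 drivers of cell division, CCNA2, CDK1, TOP2A and PCNA, and 2 brakes, CDKN1A and GADD45A, measured in breast muscle of the broiler chicken (Gallus gallus). They were chosen by name, as the rows whose RefSeq accession, without its version, carries 1 of these symbols in the NCBI chicken gene table. All 6 genes were found among 10663 named genes. Each matched 1 curated transcript: NM_205244.1 (CCNA2), NM_205314.1 (CDK1), NM_204791.1 (TOP2A), NM_204170.2 (PCNA), NM_204396.1 (CDKN1A) and NM_001044678.1 (GADD45A). The gene table lists further transcripts for CCNA2, CDK1, TOP2A and CDKN1A that matched no row, so each level below is that of a single transcript model. The 3 libraries form 1 group: breast muscle of male Arbor Acres birds, a fast-growing meat breed, taken at an age of 42 days after exposure to 50 ± 3 ppm of ammonia in the air. Libraries 1, 2 and 3 are numbered as in their titles. All were exposed, and libraries of unexposed birds are not analysed here, so the effect of ammonia is not addressed by these data. Nothing in the labels says that the libraries came from separate birds. SDs and p-values thus refer to these 3 libraries only, and the spread among them may be technical.

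A cell that divides must copy its DNA, condense and untangle its chromosomes, and pass control points that cyclin-dependent kinases open and their inhibitors close. CDK1 is the kinase that starts mitosis, and CCNA2, cyclin A2, is a partner that activates it and CDK2 during DNA replication and the entry into mitosis. TOP2A, a topoisomerase, passes DNA strands through each other so that the copied chromosomes can part. PCNA is the sliding clamp that holds DNA polymerase on its template, in replication and also in DNA repair. CDKN1A, known as p21, binds and inhibits cyclin-CDK complexes and also binds PCNA. GADD45A is a small stress-induced protein that in mammals binds PCNA and p21 and inhibits the CDK1 complex. Muscle fibres have left the cell cycle for good, and p21 takes part in that exit in mammals. Division in grown muscle is known from satellite cells and from the cells between the fibres.

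Levels are in FPKM (fragments per kilobase, relative to library size). The unit is inferred from the values, since the tables do not name it. Summed values were 569361, 586193 and 573648 FPKM in libraries 1, 2 and 3. No counting interval can be given, because the read depth is unknown. A value near 0 can be a failed estimate in these tables. Library 1 stood apart from the other libraries. The Pearson correlation of log2(FPKM + 1) across 6595 named genes, those that reached 1 FPKM in 2 or more libraries, was 0.951 for library 1 with either of the others and 0.973 for library 2 with library 3, over genes that are no independent samples. The median of these genes lay 0.15 higher in library 1 than in the mean of libraries 2 and 3 on the log2(FPKM + 1) scale. Muscle fibre markers were high, apart from PVALB at 2.37, 1.46 and 1.28 FPKM, which was named after its values were seen. With PVALB, the markers summed to 60344, 76635 and 76142 FPKM in libraries 1, 2 and 3 over 7 of 10 listed genes. Of these 7, 5 were lowest and 2 highest in library 1, beside 25.8% and 51.1% of the 6595 genes. The highest was MYL1, a myosin light chain, at 15976 ± 2880 FPKM (SD, n = 3).

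CCNA2, CDK1 and TOP2A were the lowest of the 6 genes, PCNA stood above them, and both brakes stood above every driver. CCNA2 was listed at 3.70, 5.45 and 8.44 FPKM in libraries 1, 2 and 3, a mean of 5.86 ± 2.40 FPKM (SD, n = 3). CDK1 was listed at 0.499, 7.03 and 6.48 FPKM, a mean of 4.67 ± 3.62 FPKM. TOP2A was listed at 0.182, 1.67 and 1.85 FPKM, a mean of 1.23 ± 0.915 FPKM. For each of these 3 drivers library 1 held the lowest value, by a wide margin for CDK1 and TOP2A. PCNA, the fourth driver, was listed at 33.8, 24.2 and 29.9 FPKM, a mean of 29.3 ± 4.81 FPKM, and here library 1 was not low.

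CDKN1A was listed at 135, 531 and 117 FPKM in libraries 1, 2 and 3, a mean of 261 ± 234 FPKM (SD, n = 3). Library 2 stood far above the other libraries, which lay close together. GADD45A was listed at 53.9, 62.1 and 52.99 FPKM, a mean of 56.3 ± 5.002 FPKM, and was nearly level. Without library 1 the means were 6.95 FPKM for CCNA2, 6.76 FPKM for CDK1 and 1.76 FPKM for TOP2A, and without library 2 the mean of CDKN1A was 126 FPKM. In bulk tissue, fewer cells of a type and less RNA per cell cannot be told apart, for any of these genes.

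**Figure D1:**
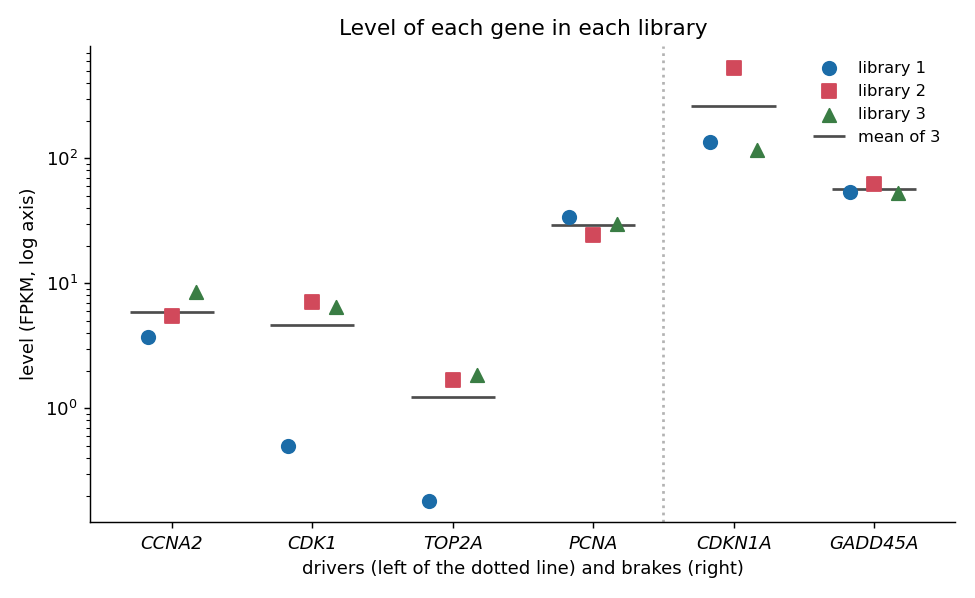
Level of each gene in FPKM, on a log axis, in each of the 3 libraries, with drivers left of the dotted line and brakes right of it; horizontal bars are means of 3. CDK1 and TOP2A are lowest in library 1, at 0.499 and 0.182 FPKM, and CDKN1A peaks in library 2, at 531 FPKM.

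Set among all named genes, the drivers were spread from below the middle upward and the brakes lay near the top. By mean level TOP2A stood above 39.6% of the 10663 named genes, CDK1 above 57.8%, CCNA2 above 61.7% and PCNA above 86.5%. GADD45A stood above 92.5% and CDKN1A above 98.2%. Within single libraries CDK1 moved most in rank. It stood above 32.2% of named genes in library 1, 65.96% in library 2 and 64.9% in library 3. CDKN1A was the 336th highest named gene in library 1, the 124th in library 2 and the 404th in library 3.

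The order of the mean levels was CDKN1A, GADD45A, PCNA, CCNA2, CDK1 and TOP2A. Neighbours in this order were compared by their log2 ratio within each library, and a call needed all 3 libraries on the same side of 0 and a mean of more than 2 SD. The order came from these same values, so the direction of each mean ratio was largely fixed beforehand. The calls therefore only describe how large each step was beside its SD. The p-values reflect only whether all 3 libraries lay on the same side of 0. Neither is an independent test of the order. GADD45A stood above PCNA by 0.95 ± 0.36 (SD, n = 3), PCNA above CCNA2 by 2.39 ± 0.71 and CDK1 above TOP2A by 1.78 ± 0.31, and these 3 ratios were called. CDKN1A over GADD45A was 1.85 ± 1.08, with all libraries on 1 side but a mean under 2 SD; without library 2 it was 1.23 and was called. CCNA2 over CDK1 was 0.97 ± 1.71, with 2.89 in library 1, -0.37 in library 2 and 0.38 in library 3. CCNA2 and CDK1, which act as partners, thus did not differ beyond their spread, and without library 1 their mean ratio was 0.01. The exact two-sided sign-flip permutation p was 0.25 for 4 of the 5 ratios, the smallest that 3 libraries allow, and 0.5 for CCNA2 over CDK1 (0.3125 and 0.5 after Benjamini-Hochberg adjustment over the 5).

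The main comparison set drivers against brakes within each library, where scaling between libraries plays no part. All 8 ratios of a driver over a brake lay below 0 in all 3 libraries. The 6 genes were chosen with earlier results of these data known, and the 8 ratios reuse them. The ratios therefore describe these 2 brakes only and are no independent test of brakes against drivers. The mean log2 ratio was -5.20 ± 1.41 for CCNA2 over CDKN1A (SD, n = 3) and -3.34 ± 0.62 for CCNA2 over GADD45A. CDK1 lay at -6.16 ± 1.95 to CDKN1A and -4.31 ± 2.12 to GADD45A. To each brake TOP2A had the lowest ratio of the drivers, at -7.94 ± 1.80 to CDKN1A and -6.09 ± 1.84 to GADD45A. PCNA was nearest to the brakes, at -2.81 ± 1.43 to CDKN1A and -0.95 ± 0.36 to GADD45A.

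By the rule above, 7 of the 8 ratios were called, which again describes how large each mean was beside its SD. A ratio of wide spread can thus be called where its mean is large. PCNA over GADD45A is the neighbour ratio given before, turned over. The exception was PCNA over CDKN1A, at -1.997, -4.45 and -1.97 in libraries 1, 2 and 3. Without library 2 its mean was -1.98, and it was called. The ratio of CDK1 to GADD45A, at -6.76, -3.14 and -3.03, was called over 3 libraries but not without library 2 (mean -4.89) or without library 3 (mean -4.95). For each of the 8 the exact two-sided sign-flip permutation p was 0.25, also after Benjamini-Hochberg adjustment over the 8, so no ratio passed a 0.05 threshold in a design that cannot reach it.

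**Figure D2:**
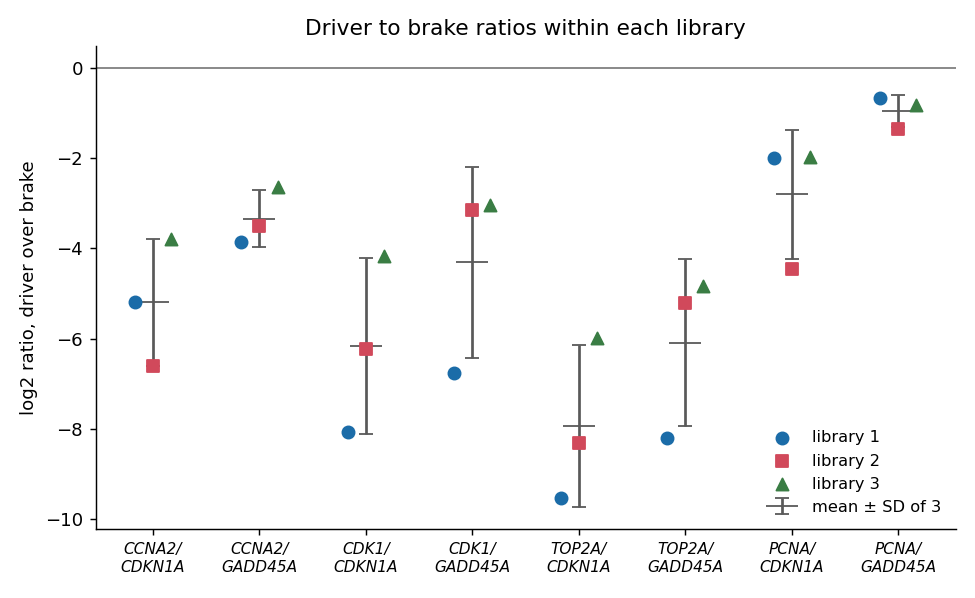
Log2 ratio of each driver over each brake within each library, with the mean and SD of 3 libraries; the line at 0 marks equal levels. Every point lies below 0, from -9.53 for TOP2A over CDKN1A in library 1 to -0.67 for PCNA over GADD45A in library 1.

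The distance between drivers and brakes differed between the libraries. The 4 drivers summed to 38.2, 38.4 and 46.7 FPKM in libraries 1, 2 and 3, and the 2 brakes to 189, 593 and 170 FPKM. The brakes thus held 4.95, 15.5 and 3.64 times the summed level of the drivers. PCNA made up 88.5% of the driver sum in library 1, 63.1% in library 2 and 64.1% in library 3. Without PCNA the drivers summed to 4.38, 14.2 and 16.8 FPKM. CDKN1A made up 71.5%, 89.5% and 68.8% of the brake sum. As means of log2(FPKM + 1), drivers minus brakes came to -4.39 in library 1, -4.57 in library 2 and -3.17 in library 3. Libraries 1 and 2 were therefore close on this measure, though library 1 held little CDK1 and TOP2A and library 2 held much CDKN1A. The closeness is tied to the added 1, which raises low values such as CDK1 and TOP2A in library 1. Without it, the log2 ratio of CDK1 over CDKN1A was -8.08 in library 1 and -6.24 in library 2. PCNA over CDKN1A went the other way, at -1.997 and -4.45.

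The next comparison asked how far each gene differed between libraries. A gene was counted where log2(FPKM + 1) differed by at least 1, a 2-fold difference on that scale, which understates the difference of low genes. With 1 library on each side there is no test. In library 1 against library 2, 3 of the 6 genes were past 2-fold and lower: CDK1 at -2.42, CDKN1A at -1.97 and TOP2A at -1.18. Among all 6595 genes 2.96% were past 2-fold in that direction. In library 1 against library 3, 3 genes were lower: CDK1 at -2.32, TOP2A at -1.27 and CCNA2 at -1.01, which only just met the rule and no longer did with libraries scaled to equal totals, beside 2.93% of all genes. None of the 6 was past 2-fold in library 1 upward, where the shares of all genes were 5.20% against library 2 and 5.96% against library 3. After median-of-ratios scaling the shares of all genes were more even, with 4.15% lower and 3.503% higher against library 2, and 4.23% lower and 4.18% higher against library 3, and the same numbers of drivers and brakes were counted. Between libraries 2 and 3 CDKN1A alone was past 2-fold, higher in library 2 by 2.17, beside 2.43% of all genes. CDK1 and TOP2A had reached the minimum of 1 FPKM only in libraries 2 and 3, so the filter itself favoured a low value of library 1 for both, and the counts against library 1 are given as a description. The other 4 genes were at 1 FPKM or more in every library.

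Without the added 1, CDK1 in library 2 was 14.1 times and in library 3 13.0 times its value in library 1. For TOP2A the same ratios were 9.16 and 10.1, and for CCNA2 1.47 and 2.28. CDKN1A in library 2 was 3.94 times its value in library 1 and 4.54 times that in library 3. PCNA spanned 1.39-fold and GADD45A 1.17-fold from the lowest to the highest library. CCNA2 was also unlike CDK1 and TOP2A in libraries 2 and 3. It stood at 5.45 and 8.44 FPKM there, while CDK1 and TOP2A were nearly equal between these libraries.

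Against genes of similar level the spread of the 6 genes was uneven. The SD of log2(FPKM + 1) was 1.37 for CDK1, above 99.4% of the 2878 genes within 2-fold of its mean level, whose median SD was 0.27. For CDKN1A it was 1.20, above 98.1% of 315 such genes, and for TOP2A 0.71, above 93.6% of 1462. CCNA2, at 0.50, stood above 84.0% of 2865 genes. PCNA, at 0.23, was near the middle, above 48.9% of 1715, and GADD45A, at 0.12, was above 18.7% of 1096. These are ranks, with no test. CDK1 and TOP2A were below the minimum of 1 FPKM in library 1 and passed the filter through the other libraries only. The filter itself thus favoured a wide spread for both, and their ranks are given as a description. With that limit, the spread of the drivers ran from PCNA, near the middle, to CDK1, and that of the brakes from GADD45A to CDKN1A.

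**Figure D3:**
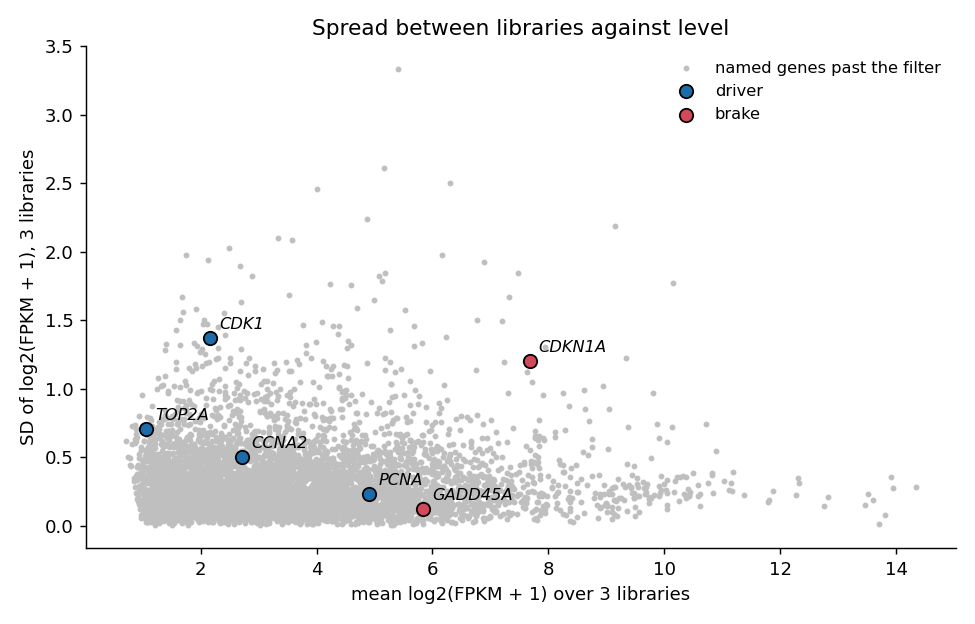
SD of log2(FPKM + 1) over 3 libraries (vertical) against mean log2(FPKM + 1) (horizontal) for 6595 named genes in grey, with drivers in blue and brakes in red. CDK1 (SD 1.37) and CDKN1A (SD 1.20) lie at the upper edge of the cloud for their level, while PCNA (0.23) and GADD45A (0.12) lie in its dense part. CDK1 and TOP2A were below 1 FPKM in library 1 and passed the filter through the other libraries only, which favoured a wide spread.

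By library, 3 of the 6 genes, CCNA2, CDK1 and TOP2A, had their lowest value in library 1, beside 25.8% of all 6595 genes. CDK1 and TOP2A, below 1 FPKM in library 1, passed the filter through the other libraries only. Being lowest there thus followed from passing the filter, and the count is given as a description. Among all 9347 named genes above 0 in any library the share was 25.7%. PCNA was lowest in library 2, where 34.8% of all genes were lowest, and CDKN1A and GADD45A in library 3, where 39.4% were. CDK1, CDKN1A and GADD45A were highest in library 2 (26.3% of all genes), CCNA2 and TOP2A in library 3 (22.6%), and PCNA in library 1 (51.1%). For PCNA and GADD45A these positions depended on scaling. After median-of-ratios scaling PCNA stood at 31.0, 24.7 and 31.3 FPKM and was highest in library 3, and GADD45A stood at 49.5, 63.3 and 55.4 FPKM and was lowest in library 1. CDK1 after the same scaling stood at 0.458, 7.17 and 6.77 FPKM, TOP2A at 0.168, 1.704 and 1.93 FPKM, and CDKN1A at 124, 542 and 122 FPKM.

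Other genes of the cell cycle were then described by role, in 8 lists with 167 members, of which 125 were matched. The counts that follow run over all matched genes, whether or not they passed the filter. Genes named only as past 2-fold were chosen by that outcome. Among all 9347 named genes above 0 in any library, 25.7% were lowest in library 1 and 47.7% highest there, and the median lay 0.08 higher in library 1 than in the mean of libraries 2 and 3 on the log2(FPKM + 1) scale. In that set 2.35% of genes were past 2-fold lower in library 1 than in library 2, and 2.18% lower than in library 3, while 4.07% and 4.66% were past 2-fold higher.

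Genes of the mitotic chromosome and spindle, the list that holds TOP2A, were the most uniform. Of 22 matched genes 21 were lowest in library 1, with a median deviation of library 1 of -0.83. Past 2-fold, 5 were lower in library 1 than in library 2 (TOP2A, SMC2, NUSAP1, HMGB2 and STMN1) and 9 lower than in library 3, and none was higher. STMN1, a regulator of microtubules, was listed at 16.3, 40.5 and 53.3 FPKM in libraries 1, 2 and 3. HMGB2, a chromatin protein abundant in dividing cells, was listed at 4.86, 11.7 and 9.81 FPKM. SMC2, a core subunit of condensin, which compacts chromosomes, was listed at 0.252, 2.76 and 3.25 FPKM. MKI67, the proliferation marker Ki-67, stood at 0.125, 0.911 and 1.24 FPKM; it and NCAPD2, named next, were chosen after their values were seen. The exception was NCAPD2, another condensin subunit, at 2.14, 2.17 and 2.01 FPKM. After median-of-ratios scaling all 22 were lowest in library 1, beside 37.2% of the 6595 kept genes. Only 6 of the 22 reached 1 FPKM in every library, so the list stands on low values.

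Among cyclins and CDKs, the list of CCNA2 and CDK1, 7 of 14 matched genes were lowest in library 1 and 5 highest there, with a median deviation of -0.17. Past 2-fold, 4 were lower in library 1 than in library 2 (CDK1, CCNB1, CCNB3 and CKS1B), 4 lower than in library 3 (CDK1, CCNA2, CCNB1 and CKS1B), and none higher. CKS1B, a small subunit of CDK complexes, was listed at 3.05, 14.2 and 10.3 FPKM. CCNB1, cyclin B1, the mitotic partner of CDK1, was listed at 1.9996, 7.13 and 7.29 FPKM and, like the next gene, was chosen after its values were seen. CCNE1, cyclin E1, which acts before DNA replication, was listed at 10.5, 7.58 and 6.27 FPKM. CCND3, a cyclin of the G1 phase, was listed at 24.2, 18.8 and 18.9 FPKM, and CDK7, which activates other CDKs and also serves transcription, at 15.97, 15.9 and 12.4 FPKM. CCND3 and CCNE1 were thus highest in library 1. The same held for CCND1, at 4.06, 3.55 and 3.67 FPKM, and CCND2, at 9.61, 8.70 and 4.71 FPKM. Both were chosen with their values in view. The remaining cyclins of the list had other patterns, and those named next were also chosen with their values in view. CCNE2, cyclin E2, was lowest in library 1, at 0.0397, 0.287 and 0.302 FPKM, and CCNF, cyclin F, was lowest in library 3, at 0.845, 0.902 and 0.404 FPKM.

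Mitotic kinases and checkpoint and anaphase-promoting genes had 8 of 12 matched genes lowest in library 1, with a median deviation of -0.16, and 2 past 2-fold lower against each other library, CDC20 and PLK1. CDC20, an activator of the anaphase-promoting complex, was listed at 0.201, 1.92 and 1.47 FPKM. PLK1, a kinase of mitotic entry, was listed at 0.0932, 1.39 and 1.30 FPKM. CDC27 and CDC16, core subunits of the anaphase-promoting complex, were level, at 35.8, 39.3 and 33.6 FPKM and at 5.10, 5.24 and 5.75 FPKM.

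Replication genes, the list that holds PCNA, were divided in the deposited values. Of 32 matched genes 17 were lowest in library 1 and 10 highest there, with a median deviation of -0.10. After median-of-ratios scaling 22 of the 32 were lowest in library 1, beside 37.2% of the 6595 kept genes. Past 2-fold, RRM2 and TK1, a thymidine kinase, were lower and POLD3 was higher in library 1, against each of the other libraries. RRM2, the subunit of ribonucleotide reductase made for DNA replication, was listed at 0.124, 3.07 and 2.66 FPKM. POLD3, a subunit of DNA polymerase delta, went the other way, at 28.0, 5.75 and 7.52 FPKM. RFC2, a subunit of the loader that places PCNA on DNA, was listed at 19.4, 13.3 and 15.3 FPKM. RFC2 had its highest value in library 1 and its lowest in library 2, as PCNA had in the deposited values, though not after median-of-ratios scaling.

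Transcription factors of the E2F family and their partners had 3 of 11 matched genes lowest in library 1 and 6 highest there, with a median deviation of 0.31. Past 2-fold, MYC was higher in library 1 than in each of the others, and FOXM1 was lower than in library 2. MYC, a factor that promotes growth and division, was listed at 10.6, 4.54 and 2.62 FPKM. E2F6 and E2F4, which act mainly as repressors in mammals, were listed at 20.5, 12.1 and 13.4 FPKM and at 11.6, 7.93 and 8.89 FPKM. LIN54, a DNA-binding part of the complex that controls cell cycle genes, was listed at 2.69, 1.30 and 2.83 FPKM.

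CDK inhibitors and pocket proteins, the list of CDKN1A, had 1 of 9 matched genes lowest in library 1 and 5 highest there, and a median deviation of 0.01. After median-of-ratios scaling 4 were lowest in library 1, beside 37.2% of the 6595 kept genes. CDKN1B, known as p27, a close relative of CDKN1A, was listed at 48.2, 31.4 and 34.0 FPKM and so did not share the high value of library 2. CDKN1A alone was past 2-fold higher in library 2 than in library 3, where 1.86% of all genes were, and 2 of the 9 were past 2-fold lower in library 1 than in library 2. The other of these was CDKN2A, listed at 0 in library 1, 1.02 FPKM in library 2 and 0.691 FPKM in library 3. Its values were seen before it was chosen.

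The list of GADD45A, with p53 targets and antiproliferative genes, had 3 of 19 matched genes lowest in library 1 and 11 highest there, and a median deviation of 0.30. After median-of-ratios scaling 7 were lowest in library 1, near the share of 37.2% of the 6595 kept genes. Past 2-fold, 3 were higher in library 1 than in library 2 (SESN1, TOB2 and BTG2) and 1 lower, and 4 were higher than in library 3 (SESN1, BTG1, BTG2 and GADD45G). SESN1, a sestrin that restrains growth signalling, was listed at 553, 54.97 and 52.96 FPKM. TOB1 and TOB2, antiproliferative proteins that act on mRNA decay, were listed at 352, 197 and 352 FPKM and at 57.5, 15.8 and 28.8 FPKM. CCNG1, an atypical cyclin induced by p53 in mammals, stood at 45.4, 113 and 85.9 FPKM; its values were seen before it was chosen. It was the gene past 2-fold lower in library 1, and like CDKN1A it was highest in library 2. The list as a whole did not share this: only 3 of the 19 were highest in library 2 and 7 were lowest there. Among all 6595 kept genes the shares were 26.3% and 34.8%. DNA damage kinase and repair genes had 2 of 6 matched genes lowest in library 1, a median deviation of 0.01 and none past 2-fold. ATM was listed at 2.13, 2.11 and 1.96 FPKM and CHEK2 at 1.20, 1.45 and 1.03 FPKM.

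**Figure D4:**
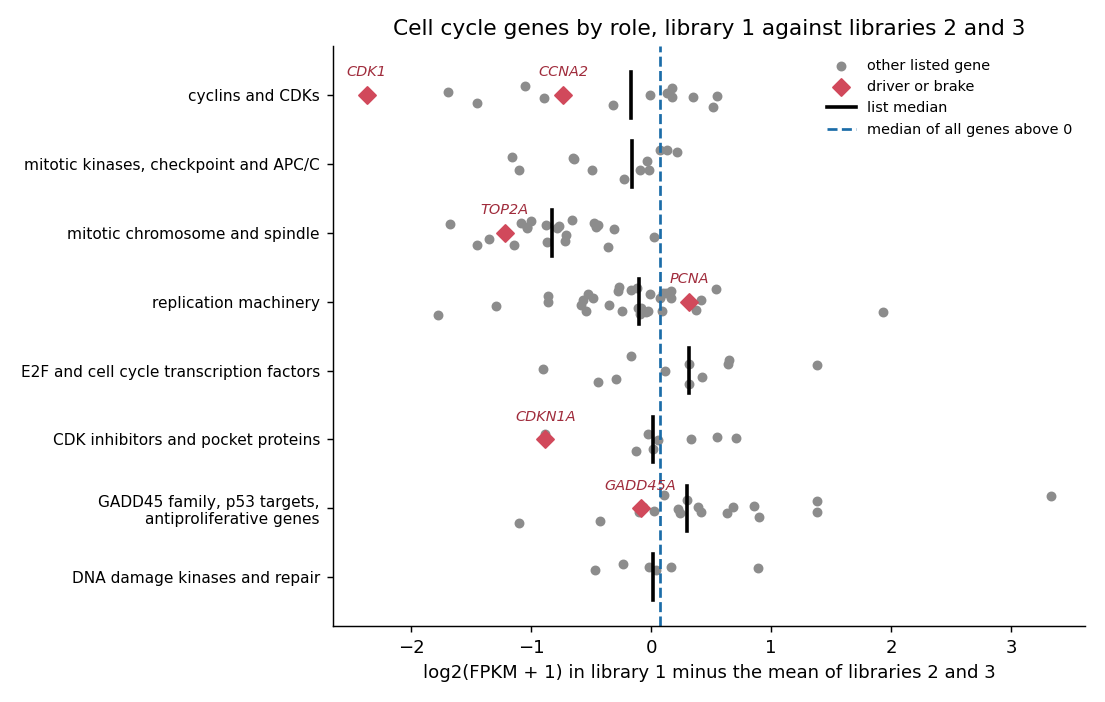
Difference of log2(FPKM + 1) between library 1 and the mean of libraries 2 and 3 (horizontal) for each matched gene of 8 cell cycle lists, with list medians as black bars, the 6 drivers and brakes as red diamonds, and the median of 9347 genes as a dashed line at 0.08. Genes of the mitotic chromosome and spindle lie left of the line, around a median of -0.83, while PCNA lies right of it within a replication list whose median is -0.10.

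Markers of muscle fibres and of other cell types also differed between the libraries, and their part in these results was not tested. The muscle fibre sum given above was lowest in library 1, like CDK1 and TOP2A, with a median deviation of library 1 of -0.41 over the 7 genes. Each sum is also given without its highest gene where this bears on the order of the libraries. Of all 9347 named genes above 0 in any library, 47.7% were highest and 25.7% lowest in library 1. Of the 6595 kept genes, 26.3% were highest in library 2 and 22.6% in library 3. Satellite cell and myoblast markers (7 of 9 matched) summed to 208, 157 and 149 FPKM in libraries 1, 2 and 3. Their highest gene was MYOD1, a myogenic factor, at 153, 109 and 94.4 FPKM, and MYOG, which marks differentiating myoblasts, was listed at 4.41, 18.6 and 12.4 FPKM. Without MYOD1 the other 6 summed to 54.3, 48.5 and 54.4 FPKM, so only with MYOD1 was the sum highest in library 1. By gene, 4 of the 7 were highest in library 1, which is near the share of all genes, 2 in library 2 and 1 in library 3. Among the 4 were MYF5, at 16.4, 8.10 and 4.04 FPKM, and PAX7, at 2.43, 1.71 and 1.96 FPKM. MYOG alone was lowest in library 1. MYOG, MYF5 and PAX7 were chosen after their values were seen. Fibroblast markers (7 of 8) summed to 418, 892 and 666 FPKM, with COL3A1, a collagen, at 168, 409 and 307 FPKM. Of the 7, 4 were lowest in library 1 and 5 highest in library 2, while PDGFRA, a growth factor receptor, at 5.53, 3.36 and 3.65 FPKM, and DPT, a matrix protein, at 18.5, 16.8 and 14.5 FPKM, were highest in library 1. These exceptions were named after their values were seen.

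Red blood cell markers (6 of 9) summed to 72.02, 410.4 and 292 FPKM, led by CA2, a carbonic anhydrase, at 45.7, 355 and 189 FPKM; HBZ was at 0 in every library. Without CA2 the other 5 summed to 26.3, 55.6 and 103 FPKM, highest in library 3, and most of that was HBBA, a globin, at 24.3, 54.1 and 98.7 FPKM. By gene the list was mixed, with 3 of the 6 lowest in library 1, beside 25.7% of all genes above 0, and 2 highest there. The latter were TAL1, at 1.94, 1.59 and 1.43 FPKM, and HBAD, which was near 0 in every library. HBA1 was near 0 in libraries 1 and 2 and stood at 3.10 FPKM in library 3. Genes other than CA2 were named after their values were seen. Fibroblast and red blood cell sums were thus lowest in library 1, like CDK1 and TOP2A, with CA2 or without it. The fibroblast sum was highest in library 2, like CDKN1A, and the red blood cell sum was so through CA2 alone. Macrophage and monocyte markers (8 of 10) summed to 395, 345 and 168 FPKM, with CD74, of antigen presentation, at 325, 270 and 136 FPKM. Without CD74 the other 7 summed to 70.2, 75.4 and 31.9 FPKM, highest in library 2, so this list was lowest in library 3 either way. Of its 8 genes 4 were highest in library 1, beside 47.7% of all genes above 0, and 4 in library 2, beside 26.3% of kept genes. Lymphocyte markers (7 of 9) summed to 13.3, 16.9 and 7.45 FPKM, with CD3D, of the T cell receptor complex, at 6.05, 9.63 and 3.78 FPKM. Adipocyte markers (6 of 6) summed to 264, 161 and 93.8 FPKM, with FABP4 at 113, 71.3 and 15.5 FPKM. Endothelial markers (6 of 7) summed to 94.6, 59.4 and 64.7 FPKM, with PLVAP at 57.0, 30.1 and 30.8 FPKM. Adipocyte and endothelial sums were highest in library 1, where CCNA2, CDK1 and TOP2A were lowest, and so were these sums without FABP4 (151, 89.6 and 78.4 FPKM) and without PLVAP (37.6, 29.3 and 33.9 FPKM). Single genes were less uniform, and 47.7% of all genes above 0 were highest in library 1. Of the 6 adipocyte markers 4 were highest in library 1, 1 in library 2 and 1 in library 3. Of the 6 endothelial markers 3 were highest in library 1, 1 in library 2 and 2 in library 3.

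**Figure D5:**
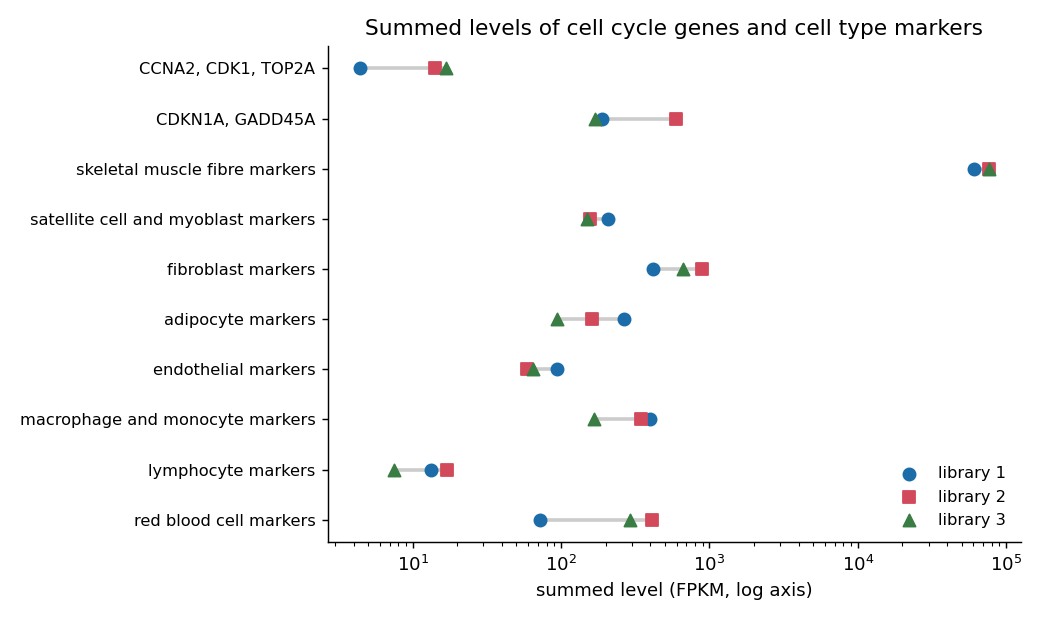
Summed level in FPKM, on a log axis, of CCNA2, CDK1 and TOP2A, of both brakes and of 8 marker lists, in each of the 3 libraries. The driver sum without PCNA is lowest in library 1 (4.38 FPKM), the brake sum highest in library 2 (593 FPKM), and the muscle fibre sum lowest in library 1 (60344 FPKM). The satellite cell sum is highest in library 1 (208 FPKM), though not without MYOD1. Of its 7 genes 4 are highest there, beside 47.7% of all 9347 genes above 0.

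Last, each gene was set beside the genes whose pattern over the 3 libraries was most like its own, by the Euclidean distance of log2(FPKM + 1) values centred on each gene's mean. With 3 libraries many genes can share a pattern by coincidence. The distance grows with the size of the differences, so a gene that is nearly level lies near many others. The added 1 also shrinks the differences of low genes. Within a distance of 0.1 lay 275 of 6594 genes for GADD45A, 261 for PCNA, 17 for CCNA2, 4 for TOP2A, and none for CDK1 or CDKN1A. Nearest to CCNA2 were POP5, an RNA-processing subunit, PARK2, the ubiquitin ligase parkin, and the smooth muscle actin ACTA2, at 11.7, 16.8 and 24.3 FPKM. Nearest to TOP2A were NDUFA11, of respiratory complex I, the tropomyosin TPM2, at 178, 411 and 414 FPKM, and SCD, a fatty acid desaturase. Without the added 1, TOP2A in libraries 2 and 3 was 9.16 and 10.1 times its value in library 1. Each of these neighbours differed by a smaller fold.

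Nearest to CDK1, at distances of 0.14, 0.23 and 0.27, were HSPB7, a small heat shock protein of muscle, at 11.2, 65.98 and 67.9 FPKM, the autophagy kinase ULK1 at 4.14, 21.2 and 23.5 FPKM, and PNOC, a neuropeptide precursor. Without the added 1, HSPB7 and ULK1 differed by a smaller fold than CDK1, and PNOC by a larger one. Nearest to CDKN1A, at 0.15, 0.17 and 0.33, were the lipid transfer protein PLTP at 1.96, 10.4 and 1.25 FPKM, the growth factor midkine, MDK, at 1.41, 10.03 and 1.38 FPKM, and RGCC, named as a regulator of cell cycle, at 51.8, 221 and 35.3 FPKM. Near to PCNA were YTHDF1, a reader of methylated mRNA, and the motor protein MYO1C. Nearest to GADD45A were the splicing factor SRSF1, the mitochondrial ribosomal protein MRPS30 and ARPC3, of the actin-branching complex. These genes lay within 0.0086 of their gene. Among the 6 genes themselves the smallest distance was that of PCNA and GADD45A, a driver and a brake, at 0.49. Both differed little between libraries, and they did not share a direction: in library 2 PCNA was lowest and GADD45A highest. CCNA2 and TOP2A followed at 0.51. The farthest pair was CDK1 and PCNA, both drivers, at 2.21.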

How the data were processed

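Per the labels' protocols, Illumina libraries were made from oligo(dT)-selected mRNA of TRIzol-extracted RNA. Tools named in the submitters' processing notes, without their roles, are CASAVA 1.7, HTSeq and Bowtie2. Genome build, annotation and quantifying program: not given in the sources used here. Each deposited table holds 1 value for each of 36977 transcripts, treated as FPKM, an inference from the deposited values; an incomplete TPM table would have the same within-library ratios. Read depth is unknown, so precision rests on the 3 libraries. Accessions were matched, without version, to gene symbols of an NCBI table (assembly GRCg7b, names only) (13188 transcripts, 35.7%, 10663 genes), and summed per gene. Genes that reached 1 FPKM in 2 or more libraries were kept (6595) and taken as log2(FPKM + 1). Of 235 listed cell cycle and marker genes, 2 matched through a synonym (PTTG1 as PTTG2 and KIF4A as KIF4B), and markers were matched by symbol alone.

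Ratios used no pseudocount, with exact sign-flip permutation tests. Work was done in Python 3.11.15 with numpy 2.4.6 and pandas 2.3.3. Fold calls were tried on simulated data, with shifts set only in genes of higher mean level than CDK1 and TOP2A. The ratio call was checked on a small made-up example only. Named genes were the 6 members, the 2 highest and the 2 of largest SD of each list, the highest marker of each cell type and the 3 nearest patterns, of which 1 gene is not reported here. Others are marked as chosen after their values were seen. The members and lists were chosen with earlier results of these data known. Alternatives were other pseudocounts, scalings, filters, fold thresholds and transcript choices, and each library left out.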

Additional observations from a re-analysis of the deposited data

How the results depend on the processing

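Of the 8 driver to brake ratios, 7 were called with pseudocounts of 0.1 and 1, with the highest transcript only and with curated transcripts only, and 6 to 7 when a library was left out. Without library 1 no single call changed. Without library 2 CDK1 over GADD45A (-4.89) was lost and PCNA over CDKN1A (-1.98) was gained, which leaves 7. Without library 3 CDK1 over GADD45A (-4.95) was lost, which leaves 6. Of the 5 neighbour ratios 3 were called, 2 with pseudocount 1 (CDK1 over TOP2A, at 1.11, was lost) and 3 to 4 with a library left out. No ratio changed sign under these settings. Since each gene had 1 matched transcript, the transcript choices could not change a level. The counts of genes past 2-fold stayed within 1.5 times under pseudocount 0.1, the 1.5-fold threshold, no filter, equal totals and median-of-ratios scaling. Dropping the filter could not change these counts, since all 6 genes had passed it. With equal totals CCNA2 was no longer in the count in library 1 against library 3, leaving 2. Under median-of-ratios scaling 0 genes in place of 1 were highest in library 1 and 1 in place of 2 was lowest in library 3, which are the shifts of PCNA and GADD45A. In the same scaling 37.2% of all kept genes were lowest in library 1. List counts of genes lowest in library 1 moved for CDK inhibitors (4 with that scaling) and for the GADD45 and p53 list (7 with that scaling, 0 with curated transcripts only, which leaves fewer genes). The count of the replication list rose from 17 to 22 with that scaling, which is within 1.5 times. No paired analysis was possible because the libraries form a single group. Leaving out libraries for mean levels, all alternatives for neighbour ratios, counts over all matched genes, marker sums without their highest gene, and scalings for the lists were chosen after seeing the data. With 3 libraries of unknown depth, values under 1 FPKM, such as CDK1 and TOP2A in library 1, are the least certain.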

Other observations

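Ribonucleotide reductase, which makes DNA precursors, was listed with a pair of small subunits that differed in level. RRM2B, the p53-inducible form used outside DNA replication in mammals, was listed at 17.7, 19.5 and 30.2 FPKM in libraries 1, 2 and 3, and RRM2, the replication form, at 0.124, 3.07 and 2.66 FPKM. RRM2B was thus the higher of the pair in each library. No test was made, and the genes of this paragraph were chosen with their values in view. FOXM1, a transcription factor of mitotic genes, stood at 0.0901, 1.22 and 0.864 FPKM and was lowest in library 1, as CDK1 and TOP2A were. MCM4, a subunit of the replicative helicase, was level at 3.56, 3.72 and 3.67 FPKM, and MCM6 nearly so at 3.62, 3.87 and 4.13 FPKM. Other subunits of that helicase were lower in library 1. MCM2 stood at 1.63, 2.36 and 2.36 FPKM, MCM3 at 0.153, 1.07 and 1.12 FPKM and MCM5 at 0.670, 1.99 and 2.06 FPKM.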
